A study of Mus musculus with 10 samples.

Results

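VSGC12, a glucocorticoid known here by its code name, was compared with dexamethasone (Dex), a synthetic glucocorticoid in long clinical use, in RAW264.7, a macrophage-like line of mouse origin. Each compound was given at 100 nM, 1 hour ahead of 1 µg/ml lipopolysaccharide (LPS, a bacterial cell-wall component), and the cells were collected for RNA at 16 hours. The comparison used 2 VSGC12 arrays and 2 Dex arrays of 10 one-colour arrays, and the remaining 6 held FF (fluticasone furoate), VSG22 (also a code name) and EtoH, 2 arrays each. The EtoH label names no glucocorticoid, and the labels do not say whether these cells received LPS. All groups share 1 cell line and 1 time, and the glucocorticoid groups share 1 dose. Nothing says that the arrays of a group came from separate cultures, so p-values measure the spread between these arrays, which may be technical. A gene was taken when its probe was well above background on both VSGC12 arrays, whatever its value on the Dex arrays, which gave 16474 of 18056 genes tested. Levels are log2 processed signals minus the array's 75th percentile, and a difference is VSGC12 minus Dex on that scale. The 20 dimmest genes of the rule had VSGC12 means of -3.34 to -3.22, and the 20 brightest outside it -2.56 to -2.01, so the 2 sides overlap in level. Of the 16474 genes, 16062 were also well above background on both Dex arrays, 310 on 1 and 102 on neither.

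Glucocorticoids enter the cell and bind the glucocorticoid receptor, a transcription factor of the nuclear receptor family that raises some genes directly and restrains others driven by NF-kB, AP-1 and interferon regulatory factors. In macrophages exposed to LPS the restrained genes include cytokines, chemokines and the genes induced by type I interferon, which the cells release themselves. The receptor is shared by all glucocorticoids, so 2 compounds at 1 dose can differ in how far they move the same genes or in which genes they move.

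The 10 macrophage markers on the list, among them Csf1r, Adgre1 and Cd68, were well above background on both arrays of either group, while 0 of 4 B cell and 0 of 4 epithelial markers were. Single markers of fibroblasts (Lum, 1 of 6), T cells (Cd3e, Cd4 and Lck, 3 of 6) and neutrophils or mast cells (Elane, Camp and Tpsb2, 3 of 6) were above background in both groups. The SD of the difference between replicates over genes was 0.41 in VSGC12, 0.63 in Dex and 0.33 to 0.37 in the other groups, so the Dex arrays were the least alike. Patches of stray local signal were also marked, where at least 3 of the 24 spots around a probe were well above background on a Dex array and on no array of another group. They touched the probes of 1335 of the 16474 genes (8.10%), and these genes are named as such below. In bulk RNA, fewer cells of a type and less RNA per cell cannot be told apart.

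Few genes separated the 2 compounds at the threshold. Of 16464 genes of the rule with a value for the test, 25 differed at an adjusted p under 0.05 (0.152%), 10 of them higher in VSGC12 (0.0607%) and 15 lower (0.0911%). Hp and Mgst2 were higher, and the chemokine genes Ccl12 and Ccl7 and the interferon-induced genes Ifit2, Gbp3 and Rsad2 were lower. The VSGC12 and Dex arrays did not overlap for any of the 25, as the choice of passing genes makes likely; over the genes of the rule both VSGC12 arrays lay above both Dex arrays in 23.5% and below them in 20.5%. Before adjustment 2393 genes had p under 0.05. The median difference over all genes of the rule was 0.00 with an SD of 0.36, and the 95% interval of a gene reached 0.29 to either side at the median. The test was limma's moderated test on all 10 arrays with Benjamini-Hochberg adjustment over all genes tested, where 71 of 18046 passed (0.393%), 11 higher (0.061%) and 60 lower (0.332%). The split between higher and lower genes moved with the scaling: 21 higher and 16 lower after quantile normalization, and 21 higher and 8 lower with the array median, where 8 of the 25 remained and Ccl7, Ifit2, Gbp3, Rsad2 and Mgst2 did not pass. The array median shifted the median difference over all genes tested to 0.07. The fit of the 4 VSGC12 and Dex arrays alone called 0 genes, with 1304 at an unadjusted p under 0.05, array weights also left 0, and leaving out VSGC12 replicate 1 or VSGC12 replicate 2 gave 0 as well.

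Among the genes that passed as higher in VSGC12 and were well above background on all 4 arrays, haptoglobin showed the largest difference. Hp, the plasma protein that binds free haemoglobin and an acute-phase gene, stood at 3.10 and 2.90 on the VSGC12 arrays, against 1.67 and 1.73 on the Dex arrays. Both VSGC12 arrays lay above both Dex arrays by over 1 log2 unit. The difference was 1.29 ± 0.11 (limma SE, n = 2 arrays a group), a 2.45-fold higher level (limma adjusted p = 0.0190). It was 1.42 within slide 1 and 1.16 within slide 2. Here and below, the SE, the interval and the p rest on a spread per gene that all 5 groups share. Replicates differed most in Dex and VSGC12, so these values can understate the spread of the groups compared. EtoH cells had -2.48 and -2.40, so Hp was higher by 5.44 in VSGC12 and by 4.14 in Dex than in EtoH. Its probe lies at mm9 chr8:112099045-112099104.

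Mgst2, a microsomal glutathione transferase that conjugates glutathione to leukotriene A4, had 4.50 and 4.47 in VSGC12, against 3.89 and 3.89 in Dex. The replicates were nearly alike in both groups, and the difference of 0.59 ± 0.06 was 1.51-fold (adjusted p = 0.0239). Cfap69, a cilia and flagella associated protein, had -1.50 and -1.46 in VSGC12, against -2.31 and -2.52 in Dex (0.93 ± 0.10, adjusted p = 0.0239). In EtoH it was not well above background on either array. The zinc finger gene Zfp101 (0.81 ± 0.11, adjusted p = 0.0398, and 0.0680 with the slide as a block) was also higher in VSGC12. So were the genes Gm1976 (1.14 ± 0.12, adjusted p = 0.0239) and 2700099C18Rik (0.85 ± 0.10, adjusted p = 0.0306, and 0.0561 with the block). For Gm1976 the Dex arrays stood apart from every other group: the levels were 0.09 and 0.38 in VSGC12, -0.98 and -0.83 in Dex, and -0.09 and 0.03 in EtoH. The remaining 4 carry names of the array design with no current symbol, Gm4499 (0.90), Gm3430 (0.83), Gm3804 (0.62, adjusted p = 0.0622 with the block) and LOC100048743. They are named outside the rule for named genes, except LOC100048743, and sequence shared with other loci could not be checked, so they are uncertain. LOC100048743 was not well above background on either Dex array, and was at least 1.61-fold higher in VSGC12, whose arrays had -2.92 and -2.62 against -4.50 and -4.34 in Dex (adjusted p = 0.0239). A gene of this kind entered only through its VSGC12 level and could not have been lower.

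Among the chemokine genes 2 of 13 measured members were lower in VSGC12 and 0 higher, where 0.0911% of the genes of the rule were called lower, and the list median was -0.17. With the array median 1 of the 2 passed, Ccl12, and with the slide as a block 1, Ccl7. Ccl12, whose product draws monocytes through the receptor CCR2, had -1.21 and -1.77 in VSGC12, against 0.27 and 0.14 in Dex. The VSGC12 arrays differed by more than the Dex arrays did, yet both lay below them, at -1.69 ± 0.19 or 3.23-fold lower (adjusted p = 0.0239). With the block its adjusted p was 0.0555. Ccl7, another monocyte attractant beside it on chromosome 11, had 5.87 and 5.64 in VSGC12, against 6.85 and 6.81 in Dex, a difference of -1.08 ± 0.11 or 2.12-fold (adjusted p = 0.0239). In EtoH, Ccl7 stood at 8.14 and 8.12, and relative to EtoH the log2 difference was -2.38 in VSGC12 and -1.30 in Dex. The probes lie at mm9 chr11:81916764-81916823 for Ccl12 and chr11:81860656-81860715 for Ccl7. Ccl2, also a CCR2 ligand, had 9.39 and 9.25 in VSGC12, against 9.61 and 9.69 in Dex, and did not pass (-0.33, 95% interval -0.58 to -0.08, adjusted p = 0.252). Ccl5, Cxcl10, Cxcl11 and Ccl4 differed by 0.07 or less in either direction.

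The interferon-induced genes held 5 of the 15 lower genes. Of 50 genes on the list for the type I interferon response 45 were measured, of which 5 were lower in VSGC12 and 0 higher, where 0.0911% of the genes of the rule were called lower. With the array median 1 of the 45 passed, and without probes in patches 3 did. The list median was -0.31, against 0.00 over all genes of the rule. In 31 of the 45 (68.9%) both VSGC12 arrays lay below both Dex arrays, where 20.5% of the genes of the rule (21.1% of all tested) did so, and in 2 both lay above (4.44%), where 23.5% (22.5% of all tested) did. Ifit2, whose product binds RNA in the antiviral response, had -1.06 and -1.08 in VSGC12, against 0.15 and -0.19 in Dex (-1.04 ± 0.11, adjusted p = 0.0239). Gbp3, a guanylate-binding GTPase, had 1.13 and 0.83 in VSGC12, against 2.04 and 1.98 in Dex (-1.03 ± 0.11, adjusted p = 0.0239). Rsad2, which encodes viperin, an antiviral enzyme, had 2.62 and 2.53 in VSGC12, against 3.59 and 3.41 in Dex (-0.93 ± 0.09, adjusted p = 0.0239). All 3 were near 2-fold lower, at 2.06-, 2.04- and 1.90-fold. Ifit3 (-1.37 ± 0.17, adjusted p = 0.0326) and Ifit3b (-1.63 ± 0.16, adjusted p = 0.0239), a near copy of it, were lower too. Their probes lie in patches of local signal on a Dex array, and signal of one gene on the probe of the other cannot be told apart here.

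The interferon members differed among themselves. The 11 that FF and VSG22 had moved down at least 2-fold had a median difference of -0.93, with 5 passing, and stood at a median of -2.68 in VSGC12 and -1.77 in Dex relative to EtoH. Isg15, a ubiquitin-like modifier, had 8.54 and 8.51 in VSGC12, against 8.56 and 8.44 in Dex, and the sensors Ifih1 (-0.08) and Dhx58 (0.07) were likewise close. Gbp2 had -2.07 and -2.31 in VSGC12, against -0.96 and -1.17 in Dex, a difference of -1.12 that did not pass (95% interval -1.55 to -0.69, adjusted p = 0.0849). Ifnb1, the gene of interferon beta itself, lay outside the rule, at -5.60 and -5.01 in VSGC12 and -5.20 and -5.75 in Dex, well above background on none of the 4 arrays.

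Promoters are shown because several of these genes were lower together. RefSeq promoters on GRCm38.p6, running 250 bases before to 50 after the start of transcription, were found for 12 of the 15 lower genes and 4 of the 10 higher. They were searched on both strands for the interferon-stimulated response element, the letters GAAANNGAAA, which read TTTCNNTTTC on the other strand. It was present in 4 of the 12 (Gbp3, Rsad2, Ifit3 and Ifit3b), 33.3%, against 3.99% of 27025 genes with a promoter in the table. The element was in 0 of the 4 higher genes. The 3 sequences below show where it stands, 5′ to 3′ on the gene's strand, with the matching letters in capitals.
Gbp3 (chr3:142559794-142560093, plus strand): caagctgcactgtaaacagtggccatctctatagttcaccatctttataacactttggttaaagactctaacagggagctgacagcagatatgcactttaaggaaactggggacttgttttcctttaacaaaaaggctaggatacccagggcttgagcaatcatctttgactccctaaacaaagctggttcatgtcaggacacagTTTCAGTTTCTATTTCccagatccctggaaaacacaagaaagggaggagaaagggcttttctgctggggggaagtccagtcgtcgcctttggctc
Rsad2 (chr12:26456403-26456702, minus strand): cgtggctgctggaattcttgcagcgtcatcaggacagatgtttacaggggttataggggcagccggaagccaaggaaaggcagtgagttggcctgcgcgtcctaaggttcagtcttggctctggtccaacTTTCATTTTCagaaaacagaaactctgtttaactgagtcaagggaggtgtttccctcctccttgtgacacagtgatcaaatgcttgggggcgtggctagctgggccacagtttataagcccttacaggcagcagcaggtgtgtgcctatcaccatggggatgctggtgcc
Ifit3 (chr19:34583279-34583578, plus strand): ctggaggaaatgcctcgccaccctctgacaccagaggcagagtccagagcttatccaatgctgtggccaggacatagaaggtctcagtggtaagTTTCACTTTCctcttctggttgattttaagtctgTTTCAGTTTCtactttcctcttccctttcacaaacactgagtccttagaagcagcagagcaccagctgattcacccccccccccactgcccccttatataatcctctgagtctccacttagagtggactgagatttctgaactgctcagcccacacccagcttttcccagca
In Gbp3 the 2 matches overlap and begin 45 and 39 bases before the start, in Rsad2 the single match begins 120 bases before it, and in Ifit3 they begin 156 and 122 bases before it. No match overlaps another motif searched. Gbp3 has another promoter in the table, which had no match, and Ifit2 had no match in either of its promoters. A gene was counted when any of its promoters held the letters. The AP-1 letters TGANTCA were in 5 of the 12 lower genes (41.7%), against 8.97% of all promoters, and among these were Rsad2, Ifit3 and Il1a. They were also in 1 of the 4 higher genes (25%), Mgst2. The promoters of Ifit3 and Ifit3b are near copies, and both are counted for the interferon element and for AP-1. The palindromic glucocorticoid response element was in none of the 16, as in all but 3 of the 27025. A match is a description of letters and was not tested.

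The remaining lower genes had mixed functions. Slamf7, a surface receptor of immune cells, had -0.79 and -0.63 in VSGC12, against 0.23 and 0.15 in Dex (-0.90 ± 0.10, adjusted p = 0.0259, and 0.0561 with the slide as a block). Ppp1r3d, a regulatory subunit that directs protein phosphatase 1 to glycogen, had -1.39 and -1.52 in VSGC12, against -0.60 and -0.74 in Dex (-0.79 ± 0.10, adjusted p = 0.0363, and 0.0639 with the block). Pign, an enzyme of GPI-anchor synthesis, had -1.08 and -1.19 in VSGC12, against 0.19 and 0.19 in Dex, a difference of -1.33 ± 0.12 (adjusted p = 0.0239). It was the one of the 25 for which VSGC12 differed from the mean of FF and VSG22 (-1.81, adjusted p = 0.0153) and Dex did not (-0.49, adjusted p = 0.109). With the mean of the gene's probes in place of the brightest one, the Pign difference was -0.64 and did not pass (adjusted p = 0.164). Ncdn, encoding neurochondrin, had 2.94 and 2.64 in VSGC12, against 3.73 and 3.73 in Dex (-0.94 ± 0.11, adjusted p = 0.0259, and 0.0590 with the block), with means of 3.62 in FF and 3.57 in VSG22. With the mean of its probes the difference was -0.48 and did not pass (adjusted p = 0.0511). Il1a, encoding the cytokine interleukin 1 alpha, had 0.80 and 0.79 in VSGC12, against 1.43 and 1.58 in Dex (-0.71 ± 0.10, adjusted p = 0.0430, and 0.0616 with the block). A patch covers its probe, and also those of Scimp (-0.80, adjusted p = 0.0561 with the block), a transmembrane adaptor of immune cells, Asb11 (-1.69) and an unnamed transcript on chromosome 5 (-1.47, adjusted p = 0.0590 with the block). In all, 6 of the 15 lower genes and 0 of the 10 higher had a patch over the probe on a Dex array. With such probes left out, 8 genes were lower and 8 higher. Scimp and Asb11 fall outside the rule for named genes and are given to complete the count.

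**Figure D1:**
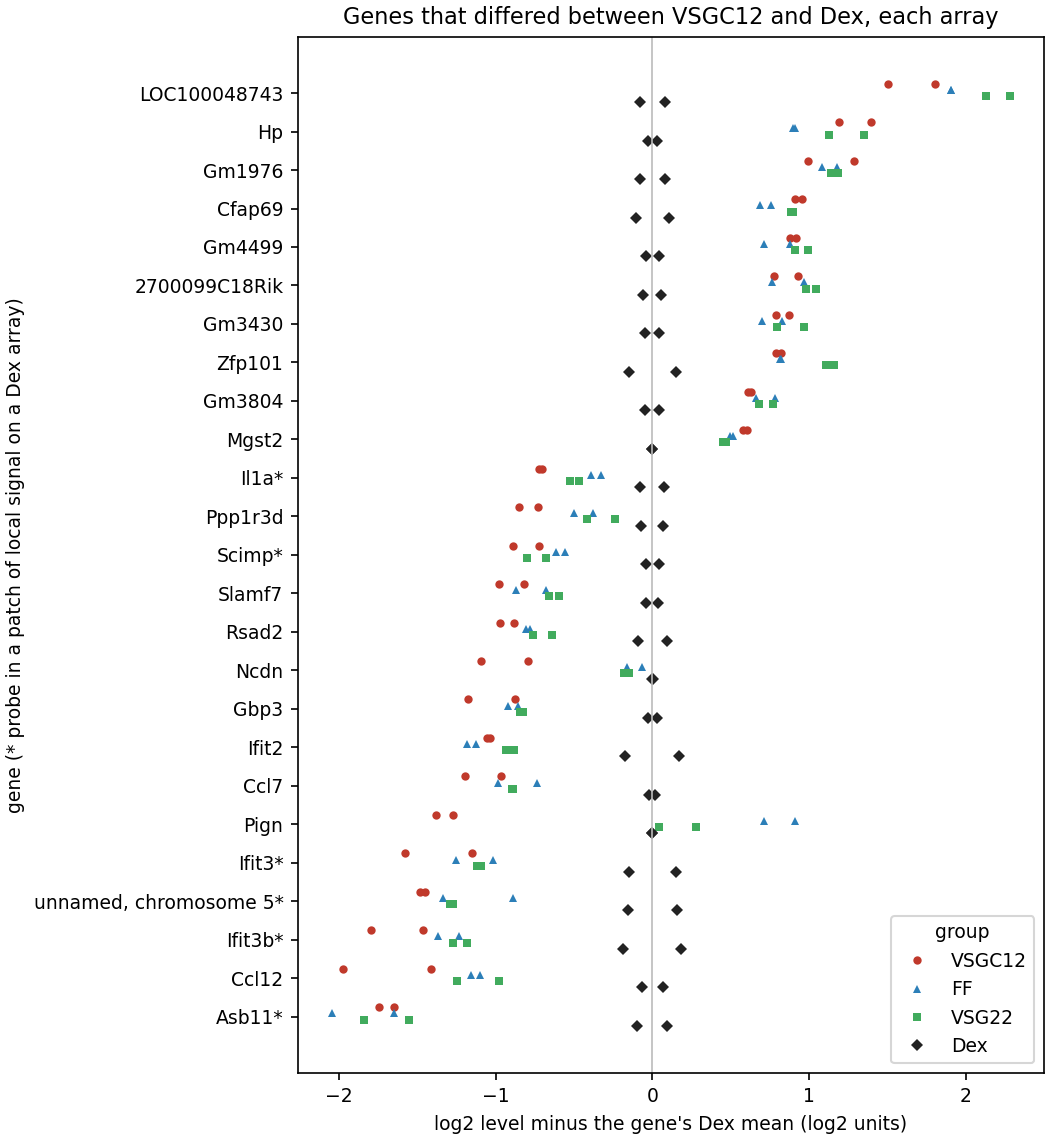
Level of each of the 25 genes on the VSGC12, FF, VSG22 and Dex arrays, as log2 units relative to the gene's Dex mean (x axis); each point is 1 array and an asterisk marks a probe touched by stray local signal on a Dex array. The 10 genes above have both VSGC12 points to the right of both Dex points and the 15 below to the left; for Pign and Ncdn the FF and VSG22 points lie nearer to Dex or beyond it.

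Set beside the FF and VSG22 arrays, most of these genes differed in Dex at the threshold, but Pign, Ncdn, Ppp1r3d and Il1a did not. The genes were chosen for a difference from the same Dex arrays, so this outcome is partly fixed by the choice and is a description. Against the mean of FF and VSG22, Hp was lower in Dex by a log2 difference of -1.07 (adjusted p = 0.00926) and differed in VSGC12 by 0.22 (adjusted p = 0.999). Ccl7 differed by 0.88 in Dex (adjusted p = 0.0165) and by -0.20 in VSGC12 (adjusted p = 0.999), and Rsad2 by 0.74 in Dex (adjusted p = 0.0160) and by -0.18 in VSGC12 (adjusted p = 0.999). Ppp1r3d differed by 0.38 in Dex (limma adjusted p = 0.112) and by -0.40 in VSGC12 (limma adjusted p = 0.999). These comparisons share arrays, and the values are given side by side. Across all genes tested, 140 passed for Dex against the mean of FF and VSG22 (0.776%), 102 of them higher in Dex, and 1 for VSGC12 (0.00555%). Among the genes of the rule 74 (0.45%) and 1 (0.00608%) passed. The spread per gene is shared by all 5 groups, while the SD between replicates was 0.63 in Dex and 0.33 to 0.41 elsewhere. Counts with Dex and counts without it are thus not on an equal footing, and the part of this in the gap was not tested. Against EtoH, 36.5% of the genes of the rule passed for VSGC12 and 33.0% for Dex (35.5% and 32.2% of all genes tested). In the pairs, 71 genes passed for VSGC12 against Dex, 67 for FF against Dex (0.371%), 100 for VSG22 against Dex (0.554%), 1 for VSGC12 against FF (0.00555%), and 0 for VSGC12 against VSG22 (1290 at an unadjusted p under 0.05) or for VSG22 against FF (1708). Among the genes of the rule, 19 passed for FF against Dex (0.115%), 47 for VSG22 against Dex (0.285%) and 1 for VSGC12 against FF (0.00608%). With p-values adjusted over the genes and these 6 pairs together, 16 genes of the rule passed for VSGC12 against Dex, 7 of them higher. A gene that missed the threshold is not shown to respond alike to 2 compounds.

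The genes that other glucocorticoids move gave a wider view. A list was taken from the FF, VSG22 and EtoH arrays alone, in a fit without VSGC12 and Dex: genes moved at least 2-fold against EtoH in the same direction by both FF and VSG22 at an adjusted p under 0.05. It held 611 genes moved up, 579 of them in the rule, and 477 moved down, 363 of them in the rule. At the median both sets stood farther from EtoH in VSGC12 than in Dex. Among the 579, the median difference between VSGC12 and Dex was 0.29 (0.32 within slide 1 and 0.23 within slide 2), 492 lay above 0, and in 373 (64.4%) both VSGC12 arrays lay above both Dex arrays, where 23.5% of the genes of the rule did so. Among the 363 the median was -0.28 (-0.30 and -0.26 within the slides), 294 lay below 0, and in 237 (65.3%) both VSGC12 arrays lay below both Dex arrays, where 20.5% did so. The 15532 genes moved by neither had a median of -0.00. Over all 611 and 477 genes, outside the rule included, the medians were 0.29 and -0.27. Single genes seldom passed: 8 of the 579 were called higher, where 0.0607% of the genes of the rule were, and 11 of the 363 lower, where 0.0911% were. These shares contain the same genes, so they are a description. These lists carry no test.

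Relative to the EtoH mean, the genes moved up had a median of 1.60 and 1.63 on the VSGC12 arrays, 1.67 and 1.62 on the FF arrays, 1.64 and 1.55 on the VSG22 arrays, and 1.32 and 1.38 on the Dex arrays. Both Dex arrays lay below the other 6. The genes moved down had -1.43 and -1.44 in VSGC12, -1.48 and -1.47 in FF, -1.41 and -1.43 in VSG22, and -1.15 and -1.27 in Dex, and again both Dex arrays lay nearest to EtoH. Since FF and VSG22 chose the list, their own values are a description, while VSGC12 and Dex arrays took no part in the choice. The EtoH arrays did, so the values relative to EtoH share them with the choice, and the difference between VSGC12 and Dex does not. Between VSGC12 and FF the medians were 0.00 for the genes moved up and 0.05 for those moved down, and between VSGC12 and VSG22 -0.07 and 0.01. Added spike-in RNA, of which 8 transcripts could be read throughout, spanned 11.2 and 11.1 log2 units on the VSGC12 arrays and 11.2 and 11.6 on the Dex arrays, and the slope on their mean over arrays was 1.01 on both VSGC12 arrays and 1.02 and 1.05 on the Dex arrays. On the EtoH arrays they spanned 9.77 and 9.84 units with slopes of 0.916 and 0.945, below every other group, and the part of this in the values relative to EtoH was not tested. Without probes in patches the medians over all 611 and 477 genes were 0.29 and -0.26.

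**Figure D2:**
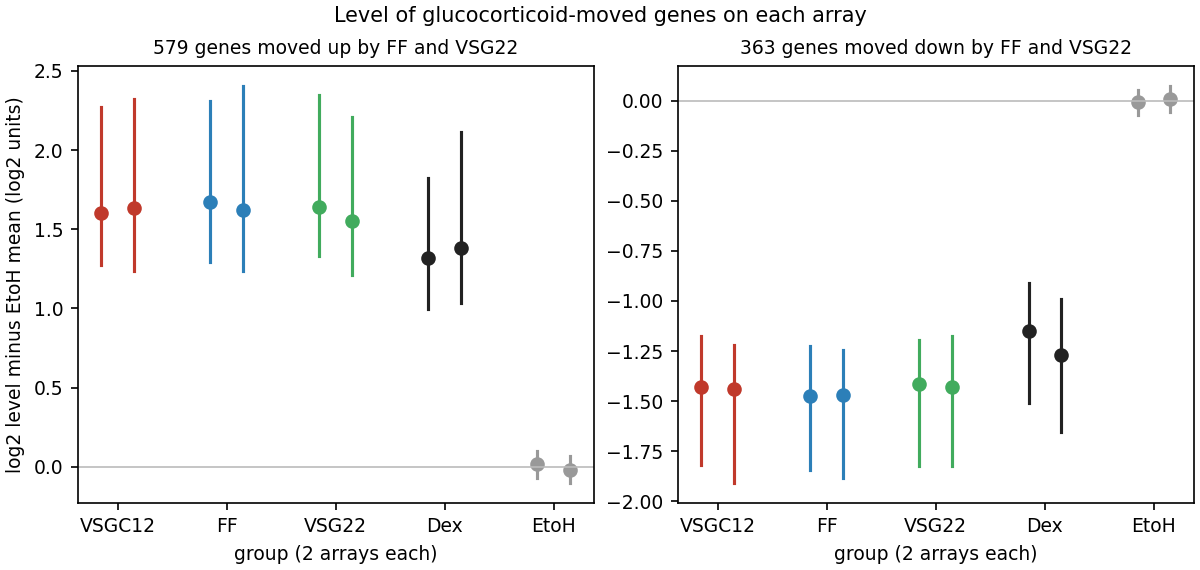
Median (point) and quartiles (line) of the log2 level relative to the EtoH mean, for each array in the VSGC12, FF, VSG22, Dex and EtoH groups, over 579 genes moved up (left) and 363 genes moved down (right) by FF and VSG22. The VSGC12 arrays sit at 1.60 and 1.63 on the left and -1.43 and -1.44 on the right, and the Dex arrays at 1.32 and 1.38 and at -1.15 and -1.27, nearer to 0.

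The median difference between the 2 compounds was larger in the sets with larger responses. Genes that FF and VSG22 moved up by a mean of 1 to 1.5 log2 units had a median difference of 0.21 (236 genes), and those moved by 1.5 to 2 units 0.28 (159 genes). For 2 to 3 units it was 0.36 (115 genes) and for 3 units or more 0.45 (69 genes). In 39 of these 69 genes the probe was not well above background on both EtoH arrays, so their change is a lower bound and their place in a size set is not settled. Over the genes well above background on all 10 arrays, a restriction chosen after seeing the data, the medians were 0.21 (216 genes), 0.26 (141 genes), 0.36 (82 genes) and 0.46 (30 genes). Among those 30, VSGC12 stood 3.41 above EtoH at the median and Dex 2.93. For genes moved down the medians were -0.23 (202 genes), -0.31 (97 genes), -0.42 (54 genes) and -0.82 (10 genes). All 10 in the last set lay lower in VSGC12, and as 10 genes are few its median is the least certain of these. Hp is among the 30 genes, and Ifit2, Ifit3b and Rsad2 among the 10.

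**Figure D3:**
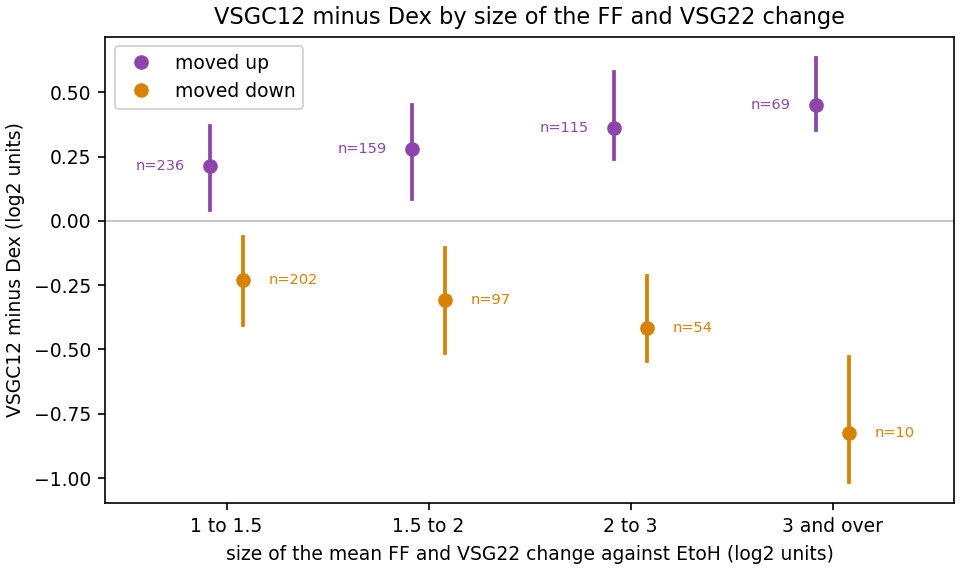
Median (point) and quartiles (line) of VSGC12 minus Dex in log2 units (y axis) for genes binned by the mean size of their FF and VSG22 change against EtoH (x axis), with the number of genes beside each point. The median climbs to 0.45 for genes moved up by 3 units or more and drops to -0.82 for genes moved down by as much.

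Cell-cycle genes lay higher in VSGC12 than in Dex at the median, and 0 passed. Of 45 on the list 44 were measured, with a median difference of 0.28; 38 lay above 0, and in 31 (70.5%) both VSGC12 arrays lay above both Dex arrays, where 23.5% of the genes of the rule did so. Of the 44, 30 are also in the set moved up by FF and VSG22, where the share was 64.4%. Relative to EtoH the list stood at a median of 1.76 in VSGC12 and 1.46 in Dex. Ccnb2, a mitotic cyclin, had 2.90 and 2.77 in VSGC12, against 2.29 and 2.16 in Dex (0.60, adjusted p = 0.0701). Ccna2, the cyclin of S phase and early mitosis, had 1.35 and 1.01 in VSGC12, against 0.74 and 0.77 in Dex, with -3.61 and -3.23 in EtoH (0.43, 95% interval -0.02 to 0.88, adjusted p = 0.353). Mki67, the proliferation marker Ki-67, had 3.07 and 3.10 in VSGC12, against 2.83 and 2.71 in Dex (0.32, adjusted p = 0.269). The replication licensing genes Mcm2 (-0.06) and Mcm3 (0.04) differed little, and Tyms was far apart between the Dex arrays, at 2.50 and 2.87 in VSGC12 and 3.11 and 4.63 in Dex. The letters TTTGAA, the cell-cycle homology region found in promoters of mitotic genes, were in 30.4% of the 368 promoters of genes moved up by FF and VSG22, against 14.4% of the 8731 of genes moved by neither and 20.2% of all promoters.

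Textbook targets of the receptor had a median difference near 0. Of 28 measured, 0 passed, where 0.152% of the genes of the rule did. The median was 0.03, 16 lay above 0 and 12 below, and members ran from -1.05 to 0.73. Both VSGC12 arrays lay above both Dex arrays in 32.1%, where 23.5% of the genes of the rule did. They lay below them in 28.6%, where 20.5% did. Relative to EtoH the list median was 0.14 in VSGC12 and 0.08 in Dex. Members moved up and members moved down offset each other in such a median, so it does not show that each moved little. Fkbp5, a co-chaperone that binds the receptor complex, had 5.53 and 5.35 in VSGC12, against 4.71 and 4.91 in Dex, with 3.17 and 3.08 in EtoH. The groups did not overlap, and the difference of 0.63 had a 95% interval of 0.31 to 0.94 (adjusted p = 0.145). Tsc22d3, which encodes the glucocorticoid-induced leucine zipper GILZ, had 4.24 and 4.09 in VSGC12, against 4.09 and 4.10 in Dex (0.06, 95% interval -0.15 to 0.28). Dusp1, a phosphatase of MAP kinases, differed by 0.30 (95% interval -0.09 to 0.70) and the clock gene Per1 by 0.09 (95% interval -0.27 to 0.45). Neither Tsc22d3 nor Dusp1 was moved 2-fold by FF and VSG22 at this time. Zbtb16, a zinc finger factor, was well above background on no Dex array, with -3.41 and -2.78 in VSGC12 and -3.35 and -4.31 in Dex. The receptor gene itself, Nr3c1, had 3.31 and 3.14 in VSGC12, against 3.35 and 3.25 in Dex (-0.08, 95% interval -0.30 to 0.14).

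Among 17 measured cytokine genes 1 was lower in VSGC12, Il1a, where 0.0911% of the genes of the rule were called lower. Without probes in patches 0 passed, and 0 did with the array median or with the slide as a block. The list median was -0.21. In 9 of the 17 (52.9%) both VSGC12 arrays lay below both Dex arrays, where 20.5% of the genes of the rule did so, and in 5 (29.4%) both lay above, where 23.5% did. Of the probes, 7 of the 17 lie in patches on a Dex array. Il33, an alarmin, had -0.96 and -1.93 in VSGC12, against 0.02 and -0.05 in Dex, with 3.98 and 4.08 in EtoH. The VSGC12 replicates were nearly 1 log2 unit apart, and the difference of -1.43 did not pass (95% interval -2.08 to -0.78, adjusted p = 0.131). Il10, an anti-inflammatory cytokine, had 2.13 and 1.97 in VSGC12, against 2.67 and 2.57 in Dex (-0.56, 95% interval -0.76 to -0.37, adjusted p = 0.0612). Stray local signal was marked at its probe on a VSGC12 array, and likewise for 191 genes of the rule in all, of which 0 were among the 25. Il6 had 5.76 and 5.79 in VSGC12, against 6.23 and 6.13 in Dex (-0.41, adjusted p = 0.180). Il1b (-0.48) and Tnf (-0.21), the classical early cytokines, did not pass and have probes in patches. The inflammatory enzymes Nos2 (-0.23, 95% interval -0.44 to -0.01) and Ptgs2 (-0.26, 95% interval -0.57 to 0.06) did not pass either.

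The other lists held few or no passing genes. On the acute-phase and complement list 1 of 10 passed, Hp, and C3ar1, the receptor of complement C3a, stood at -1.47 and -1.68 in VSGC12 and -0.37 and -0.41 in Dex (-1.18, adjusted p = 0.0641). The osteoclast list, of interest since RAW264.7 cells can form osteoclasts, had 0 of 15 passing and a median of -0.30. The macrophage identity list had 0 of 24 and -0.21, the NF-kB pathway 0 of 32 and -0.04, sterol synthesis 0 of 24 and 0.09, and the respiratory chain 0 of 28 and 0.05. Phagocytic genes had 0 of 18 and -0.13, and Mertk, a receptor for the uptake of dying cells, differed by 0.28 (95% interval -0.18 to 0.74), with -1.28 and -1.42 in VSGC12, and -1.64 and -1.62 in Dex, while neither EtoH array was well above background. Lpl, lipoprotein lipase, differed by -0.13 (95% interval -0.41 to 0.15). Over the genes of the rule 0.152% were called.

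**Figure D4:**
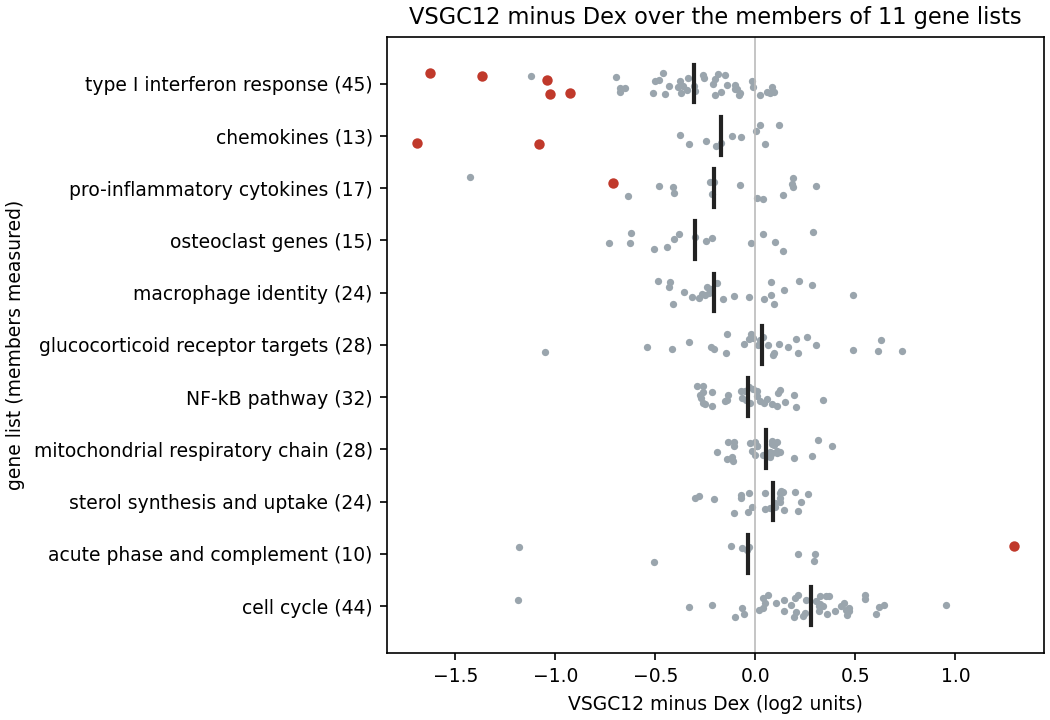
VSGC12 minus Dex in log2 units (x axis) for the measured members of 11 gene lists, with 1 point per gene, red where the adjusted p was under 0.05, and a black bar at the list's median. The interferon list has its median at -0.31 with 5 red points, and the cell-cycle list at 0.28 with none.

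Outside the rule, 46 genes passed. A gene outside it was dim on a VSGC12 array and was tested because another group was bright, so a lower level in VSGC12 was largely fixed by that choice. Of the 46, 45 were lower in VSGC12, 44 of these well above background on both Dex arrays, and 31 of the 46 had probes in patches on a Dex array. Mx1, an interferon-induced antiviral GTPase, was well above background on 1 VSGC12 array only and had -3.62 and -3.92 in VSGC12, against -2.17 and -2.19 in Dex (adjusted p = 0.0145). With the dim array set at its floor the level was at least 2.36-fold lower in VSGC12. Its probe lies in no patch. The largest differences were in probes above background on no VSGC12 array. As signals, Mxra8, Adgrl2 and Klk5 were at least 5.43-, 5.54- and 5.12-fold lower in VSGC12. Their probes lie in patches on a Dex array, so these bounds need not hold for the RNA. Mxra8, for instance, had -5.79 and -5.21 in VSGC12, against -0.44 and -1.56 in Dex, with -5.73 and -5.50 in EtoH. A transcript named only by an Ensembl identifier in the files had -5.73 and -5.16 in VSGC12, against -1.02 and -0.42 in Dex. It was at least 6.60-fold lower, with no patch marked. Its means were -5.75 in FF, -5.71 in VSG22 and -5.69 in EtoH, well above background on none of these arrays. The signal was thus on the Dex arrays alone, and whether it is stray was not tested.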

How the data were processed

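RNA from 10 RAW264.7 samples was hybridised to 1-colour (Cy3) Agilent arrays on 2 slides, each holding all 5 groups. Per the file headers, the deposited intensity values came from Agilent Feature Extraction 10.7.3.1, whose processed signal is corrected for background and detrended on each array and carries no scaling between arrays. The submitters' processing notes list limma without its step.

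Control spots (of 62976 spots, 59305 were kept) and spots flagged non-uniform or outlying were left out, the spots of a probe were averaged as log2, and each array's 75th percentile was subtracted. Between 40.1% and 44.4% of the spots were well above background and 0 were saturated, and the number of arrays limits the precision. Each gene took the brightest of its probes that at least 1 group showed well above background on both arrays. Names came from the GRCm38.p6 gene table (26413 probes by accession, 3859 by symbol, 735 by synonym) and otherwise from the files (24674), and probe positions are on mm9, as in the files. Of the genes of the rule, 12698 carry a current symbol.

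Groups were fitted with limma 3.58.1 in R 4.3.3 (a mean per group, with no other term; residual degrees of freedom 5, prior 1.81), with two-sided tests, Benjamini-Hochberg adjustment over all genes and a threshold of 0.05. Where a group was not above background, its floor is the lowest signal that counted as above background on its arrays. The script was tested on simulated data. The slide, which is the replicate number, correlated deviations between VSGC12 and Dex with r = 0.32 across genes, the highest of all pairs. Between other pairs r was -0.04 to 0.29. Each slide holds all 5 groups, but the main fit did not take the slide as a pairing. The test has no block, and the p with the slide as a block stands beside each call it ends. Named genes are the largest passing genes outside patches, up to 4 passing members per list, a set of anchor genes, and the largest among genes on 1 side of background and among genes moved by FF and VSG22. The members, lists and anchors were chosen with earlier results of these data known. The alternatives cover normalization, background correction, filter, probe choice, spread, slide and replicates.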

Additional observations from a re-analysis of the deposited data

How the results depend on the processing

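The 25 genes that passed (10 higher, 15 lower) became 88 with normexp background correction (42 higher, 46 lower), 52 with an intensity trend and robust shrinkage (16 higher, 36 lower) and 16 without probes in patches (8 lower). They became 0 with no filter on dim probes (1393 at an unadjusted p under 0.05), with the 4 arrays alone and with array weights (1552), each by limma. Quantile normalization and the array median both gave 21 higher genes, the array median 8 lower (8 of the 25 remained; Ccl7, Ifit2, Ifit3, Gbp3, Rsad2, Cfap69 and Mgst2 were among the 17 lost), and the filter on all 4 arrays 6 higher. With the replicate block, 21 genes passed (12 higher, 9 lower), and 15 of the 25 remained; Ccl12, Slamf7 and Ncdn were among the lost. Leaving out 1 array gave 0 to 495 genes (0 to 99 higher, 0 to 430 lower): 0 without VSGC12 replicate 1 or VSGC12 replicate 2, 495 without Dex replicate 1 and 140 without Dex replicate 2. In these fits the lone array is assumed to vary like the other groups. The cause was not tested.

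The median difference of the genes moved up by FF and VSG22 was 0.33 with quantile normalization, 0.34 with the array median, 0.33 with the percentile over probes above background everywhere, and 0.24 to 0.33 leaving out 1 array, against 0.29. Over the 17 alternatives it ran from 0.24 to 0.34, and that of the genes moved down from -0.34 to -0.22. The interferon list kept a median of -0.36 to -0.23 and the cell-cycle list of 0.19 to 0.36. No passing gene that is named changed direction under the alternatives run. Hp passed in 12 of 17 alternatives, Rsad2, Ccl7, Ccl12, Ifit2 and Gbp3 in 11, Ncdn and Gm3804 in 8, and 2700099C18Rik, Zfp101 and Ppp1r3d in 5; Il1a passed in 7 of 16. With 2 arrays a group, differences below about 0.29 lie within the median 95% interval, and dim genes on the Dex arrays are limited by stray local signal.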
